A study of Mus musculus with 19 samples.

Results

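The genes described here are those by which the liver makes cholesterol and fatty acids and that are controlled by the transcription factors SREBP and ChREBP. They were chosen as a list of mouse symbols, by a rule that uses no measured value but was written with earlier results of these data known, and matched to the count table by Ensembl gene ID. All 43 listed genes were found among the 55416 genes of the table, 20 in a sterol arm and 23 in a fatty acid arm, and all 43 were among the 15570 genes with enough counts to be tested.

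The study sequenced poly(A) RNA from mouse liver to ask how the organ responds to pre-renal azotemia (PRA), the build-up of nitrogenous waste in blood when the kidneys are poorly perfused, and whether the response differs without interleukin-6 (IL-6). All mice are labelled C57BL/6. PRA was induced with furosemide, a loop diuretic, given intraperitoneally at 4 mg in each of 2 injections 3 h apart, and tissue was collected at 6 h from the start of injections. The labels give 5 groups: 4 normal libraries from wild-type (WT) mice that were not injected, 4 from WT mice given vehicle, 4 from WT mice given furosemide (WT PRA), 4 from IL-6 -/- mice given vehicle and 3 from IL-6 -/- mice given furosemide (knockout PRA). No non-injected IL-6 -/- libraries were analysed here, and the labels give no age, feeding state or hour of day. Nor do they state that each replicate is its own animal. The p-values therefore describe the scatter of these libraries, part of which may be technical.

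As background, SREBP-2, encoded by Srebf2, drives the genes of the mevalonate and cholesterol pathway when membrane sterol is low, and SREBP-1c, a product of Srebf1, drives fatty acid synthesis after feeding and insulin. Both are made as membrane-bound precursors that INSIG proteins hold in the endoplasmic reticulum, so that a transcript level of Srebf1 or Srebf2 is not a level of active factor. ChREBP, encoded by Mlxipl, responds to carbohydrate and acts with SREBP-1c on glycolytic and lipogenic genes, and the liver is a main site of both pathways.

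Gene counts were between 32073865 and 74041441 per library, and a count of 0 allows up to 0.0405 to 0.0935 CPM (counts scaled to a common library total). Levels below are CPM scaled by the TMM method, fold changes are log2 differences fitted by edgeR, and p-values are adjusted over all 15570 genes. Il6 itself was at 0 to 5 counts in 18 of 19 libraries and at 16 counts in knockout PRA replicate 2, too few to check the genotype labels, so "knockout" means libraries labelled IL-6 -/-. The liver label was borne out by 8 hepatocyte markers, which summed to between 75611 and 151196 CPM in every library. Of 6 markers of adipocytes, which also make fatty acids, Adipoq was at most 0.288, Plin1 at most 0.503, Retn at most 0.180 and Cfd at most 4.16 CPM in any library, and Lep was at 0 in every group except WT PRA. The other one, Car3, which hepatocytes also express, averaged 1728 to 2429 CPM over the groups and made up nearly all of the list's sum of 1514 to 2890 CPM per library. Neutrophil markers summed to 0.618 to 1.11 CPM in WT vehicle and to 7.96 to 9.38 CPM in WT PRA libraries.

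Promoter sequences are shown for 6 members, because the transcription factors of these pathways act through short motifs near the start of transcription. RefSeq windows on GRCm38.p6, a build other than that of the counts, were matched for 36 of the 43 members. The windows run from 250 bases before to 50 bases after an annotated start, and the 250 bases before it are printed 5′ to 3′ on the strand of the gene. Capitals mark matches to any of 4 motifs searched on both strands. They are CCAAT, the box of the factor NF-Y that assists SREBP, CACGTG, an E-box, TCACNCCAC, a sterol regulatory element, and the carbohydrate response element of ChREBP, searched as CACGNG and CNCGNG with 5 bases between them. Adjoining capitals in Fasn are 2 overlapping CCAAT boxes. Hmgcs1 and Mvk stand for the early steps of the sterol arm, Sc5d for its called member, Pklr for the carbohydrate motif, and Fasn and Thrsp for the fatty acid arm.
Hmgcs1, chr13:119690101-119690350, plus strand: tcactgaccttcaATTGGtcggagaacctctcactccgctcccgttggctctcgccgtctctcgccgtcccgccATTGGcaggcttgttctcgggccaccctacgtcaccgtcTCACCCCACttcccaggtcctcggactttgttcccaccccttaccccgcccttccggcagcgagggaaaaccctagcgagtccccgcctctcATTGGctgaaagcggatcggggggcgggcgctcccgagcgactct
Mvk, chr5:114444019-114444268, plus strand: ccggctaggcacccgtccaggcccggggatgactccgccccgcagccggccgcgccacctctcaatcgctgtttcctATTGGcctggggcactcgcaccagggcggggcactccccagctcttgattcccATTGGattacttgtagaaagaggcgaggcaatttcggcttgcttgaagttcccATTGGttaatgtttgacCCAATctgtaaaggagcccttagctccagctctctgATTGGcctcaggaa
Sc5d, chr9:42264301-42264550, minus strand: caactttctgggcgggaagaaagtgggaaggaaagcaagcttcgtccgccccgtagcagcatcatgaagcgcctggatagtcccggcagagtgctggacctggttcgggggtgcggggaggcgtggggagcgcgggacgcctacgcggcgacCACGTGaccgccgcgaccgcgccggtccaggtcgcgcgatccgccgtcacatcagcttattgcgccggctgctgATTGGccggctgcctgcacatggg
Pklr, chr3:89136373-89136622, plus strand: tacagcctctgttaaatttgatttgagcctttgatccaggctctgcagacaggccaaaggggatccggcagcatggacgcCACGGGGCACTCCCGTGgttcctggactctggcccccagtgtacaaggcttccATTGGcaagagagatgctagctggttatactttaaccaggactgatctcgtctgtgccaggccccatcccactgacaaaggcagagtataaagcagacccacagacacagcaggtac
Fasn, chr11:120824548-120824797, minus strand: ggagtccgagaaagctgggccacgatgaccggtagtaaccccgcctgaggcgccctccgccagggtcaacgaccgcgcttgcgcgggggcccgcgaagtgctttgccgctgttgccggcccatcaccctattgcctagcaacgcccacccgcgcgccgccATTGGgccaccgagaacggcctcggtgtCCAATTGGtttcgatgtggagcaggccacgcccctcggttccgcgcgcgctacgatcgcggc
Thrsp, chr7:97417551-97417800, minus strand: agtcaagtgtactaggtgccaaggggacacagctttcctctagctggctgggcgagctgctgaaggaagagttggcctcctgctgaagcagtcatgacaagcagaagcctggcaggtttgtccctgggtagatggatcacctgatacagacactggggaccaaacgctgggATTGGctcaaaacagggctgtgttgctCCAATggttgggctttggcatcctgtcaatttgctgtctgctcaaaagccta

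The CCAAT box was the motif that most of these windows shared. It was in at least 1 window of 15 of 16 sterol arm genes (93.8%) and 15 of 20 fatty acid arm genes (75.0%), against 41.1% of all 27025 genes with a window. Mvk held 5 such boxes between bases -173 and -10, on either strand. Fasn, which encodes fatty acid synthase, held 3, of which a pair overlapped. An E-box was in 25.0% of the genes of each arm and in 8.09% of all genes, among them Sc5d at bases -98 to -93. The exact sterol element was rare, in Hmgcs1 (bases -137 to -129) and Mlxipl among the 36 members and in 1.44% of all genes. The carbohydrate element was found in Pklr, at bases -170 to -154, and in 0.426% of all genes. A match describes the letters of the window and is no evidence of binding, and an exact search misses elements that differ by a base.

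**Figure D1:**
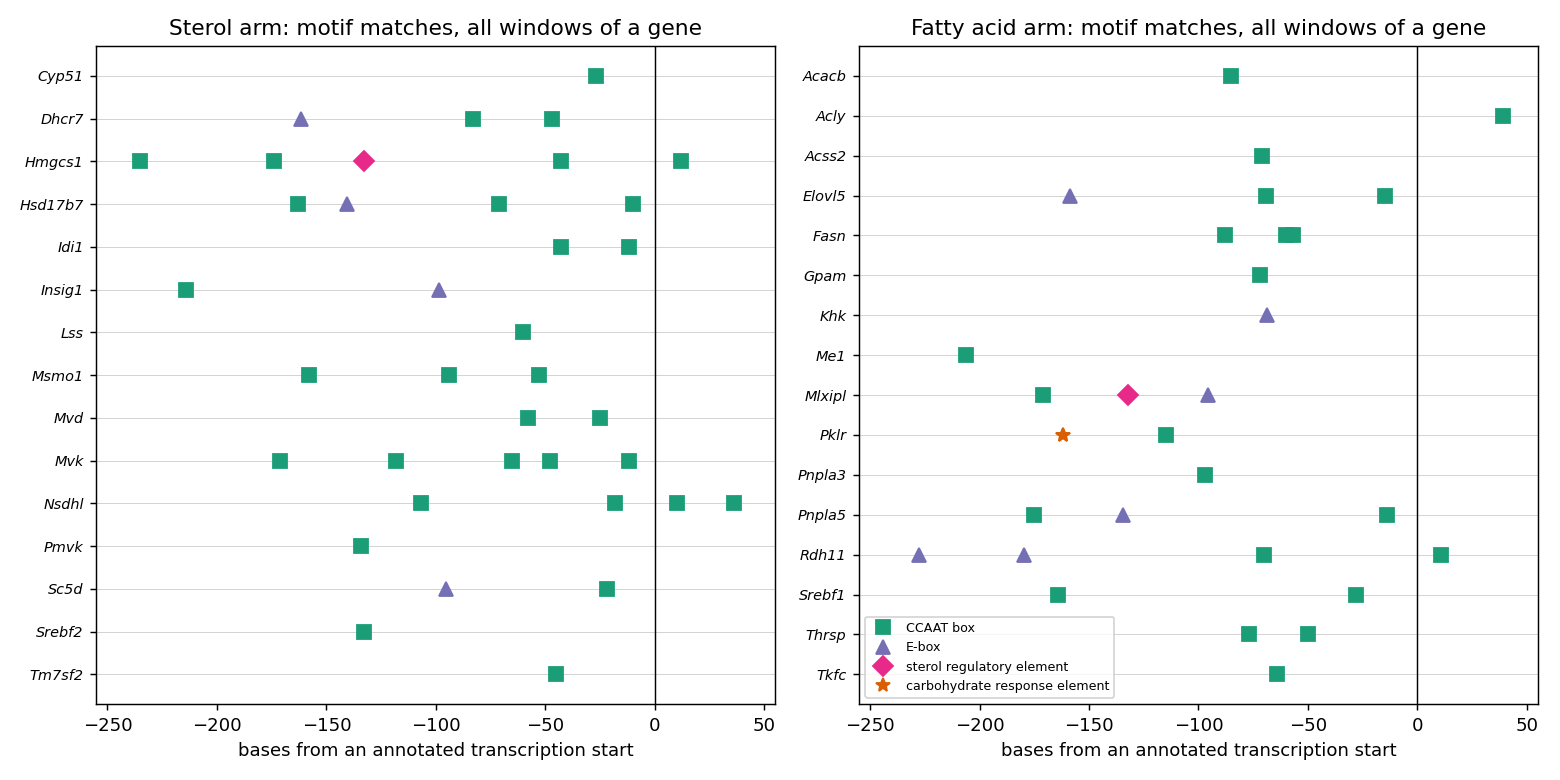
Positions of 4 motifs in the promoter windows of the members that hold at least 1 match, with sterol arm genes on the left and fatty acid arm genes on the right. The x axis is the distance in bases from an annotated transcription start, and each marker is 1 match. CCAAT boxes are present in 15 sterol arm and 15 fatty acid arm genes, and the carbohydrate response element in Pklr alone.

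The members differ widely in abundance. Levels were divided by the exon length of a gene, merged over all its annotated transcripts. Genes with long alternative transcripts are set low by this, so ranks between genes are approximate. On this scale Scd1, the stearoyl-CoA desaturase that makes oleate and palmitoleate, led the fatty acid arm in WT vehicle livers at 1130 CPM per kb. Khk, the fructose kinase, followed at 236 CPM per kb, then the delta-6 desaturase Fads2 at 220 and Thrsp, a small lipogenic protein also called Spot 14, at 215. The sterol arm was lower, led by the sterol desaturase Sc5d at 69.0 CPM per kb and phosphomevalonate kinase Pmvk at 42.7. At the other end, the lipid droplet proteins Pnpla3 and Pnpla5 averaged 0.654 to 1.22 and 0.127 to 0.630 CPM over the groups, so that their fold changes are poorly determined.

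In the sterol arm, PRA left nearly all genes of cholesterol synthesis in WT livers within the spread between libraries. None of the 20 rose and 1, Sc5d, fell, beside 9.74% of all tested genes called higher and 12.3% called lower. The estimates leaned downward all the same, with 18 of 20 below 0, a median log2 fold change of -0.27 against -0.03 over all genes and a range from -0.67 to 0.22. Members of an arm moved together between libraries, so these signs are not separate observations. WT vehicle replicate 4 was the highest of its group in 16 of the 20 genes, with a mean log2 CPM over the arm of 6.51. Vehicle replicate 1, at 5.71, was below all WT PRA libraries, at 5.81 to 5.87. At an unadjusted p under 0.05, 2 members passed, and DESeq2 and limma-voom called 1 each. In 2 members, Sc5d and Hmgcs1, all PRA libraries were below all vehicle libraries, and in none above, beside 12.1% and 11.1% of all genes.

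Neither regulator of the arm passed between PRA and vehicle. Srebf2, which encodes its transcription factor, was at 51.2, 33.9, 33.9 and 54.8 CPM in the 4 WT vehicle libraries and at 41.9, 42.7, 39.7 and 45.6 CPM in the WT PRA libraries. The PRA values fell inside the vehicle range, and the log2 fold change was -0.03 (95% interval -0.43 to 0.36, edgeR adjusted p = 0.919). In knockout livers Srebf2 was at 54.0, 55.8, 37.5 and 29.8 CPM after vehicle and at 47.2, 42.2 and 55.5 CPM after PRA (0.13, interval -0.30 to 0.55, edgeR adjusted p = 0.723), with overlap again. The normal libraries, at 41.6, 40.0, 48.6 and 34.6 CPM, lay in the same range. Insig1, which encodes an anchor of the SREBP precursors and is itself an SREBP target, was at 98.5, 87.9, 103 and 152 CPM after vehicle and at 95.3, 90.4, 67.3 and 95.9 CPM after PRA in WT livers. These groups overlapped and the difference did not pass (-0.34, edgeR adjusted p = 0.174). Knockout libraries held 118, 133, 109 and 74.9 CPM of Insig1 after vehicle and 109, 131 and 113 CPM after PRA (0.11, edgeR adjusted p = 0.743). All 3 knockout PRA libraries were above all 4 WT PRA libraries, without passing the test between the genotypes (0.43, edgeR adjusted p = 0.249).

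The early steps, from acetyl-CoA to farnesyl pyrophosphate, were lower in WT PRA libraries on average but varied strongly after vehicle. Hmgcs1, which makes the HMG-CoA on which the pathway rests, averaged 111 ± 43 CPM (SD, n = 4) after vehicle and 72.2 ± 5.5 CPM after PRA. Its PRA libraries were all below its vehicle libraries, but the difference did not pass (log2 fold change -0.62, edgeR adjusted p = 0.233). Mvd, the mevalonate decarboxylase, had the lowest estimate of the arm, at 17.4 ± 11 CPM against 11 ± 1.6 CPM (log2 fold change -0.67, edgeR adjusted p = 0.339). In knockout livers its estimate was similar, at -0.77 (edgeR adjusted p = 0.339). The isomerase Idi1 averaged 23.1 ± 11 and 16.5 ± 2.3 CPM, Mvk 22.3 ± 7.8 and 18.6 ± 2.4 CPM, and Fdps, the farnesyl pyrophosphate synthase, 134 ± 32 and 125 ± 8.6 CPM. Acat2, the cytosolic thiolase, averaged 47.5 ± 6.7 and 37.3 ± 5.0 CPM, and Pmvk 73.1 ± 13 and 68.5 ± 5.4 CPM. None of these passed.

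Among the later steps, from squalene to cholesterol, Sc5d was the member that passed. Sc5d (ENSMUSG00000032018, chromosome 9), which introduces the C5 double bond of the sterol nucleus, was at 294, 368, 344 and 335 CPM in the WT vehicle libraries. In the WT PRA libraries it was at 259, 260, 232 and 260 CPM. Every PRA library was below every vehicle library, and the gene was 1.33-fold lower (log2 fold change -0.41 ± 0.12, SE, n = 4 each, edgeR adjusted p = 0.0138). The call held when any of the 8 libraries was left out, at adjusted p-values of 0.00788 to 0.0497. In knockout livers Sc5d was at 349, 331, 372 and 274 CPM after vehicle and at 220, 328 and 256 CPM after PRA, groups that overlapped through PRA replicate 2 and vehicle replicate 4. That estimate was -0.30 and did not pass (edgeR adjusted p = 0.104), but it passed without knockout vehicle replicate 4 or knockout PRA replicate 2. The difference between the 2 responses was 0.10 (interval -0.25 to 0.46) and did not pass (edgeR adjusted p = 0.937). Other genes of these steps stayed within their spread, among them squalene epoxidase Sqle, at 54.0 ± 24 and 58.3 ± 6.3 CPM, and the demethylase Cyp51, at 154 ± 44 and 143 ± 7.8 CPM. Tm7sf2, a sterol reductase, had the highest estimate, at 134 ± 27 and 155 ± 18 CPM (0.22). Fdft1, Lss, Msmo1, Hsd17b7, Nsdhl and Dhcr7, which act between farnesyl pyrophosphate and cholesterol, had estimates from -0.46 (Fdft1) to -0.04 (Nsdhl), and none passed.

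In knockout livers no member of the sterol arm passed between PRA and vehicle, against 7.96% of all genes called higher and 8.38% called lower. The count was 2 at an unadjusted p under 0.05, and 0 with DESeq2 and with limma-voom. The median was -0.04, with 8 estimates above 0 and 12 below, and 12 of 20 members had the same sign as in WT livers. No member passed the interaction, in which the WT response is subtracted from that of the knockout (0.475% of all genes called, 0 of 20 at an unadjusted p under 0.05, 0 with DESeq2 and limma-voom). Its median was 0.15 against 0.03 over all genes, and 17 of 20 estimates were above 0. Between the genotypes under PRA, where 3.80% of all genes were called, none of the 20 passed (1 at an unadjusted p under 0.05, 0 with DESeq2 and limma-voom). After vehicle, where 0.0706% of all genes were called, none passed either (0 at an unadjusted p under 0.05, 0 with either other tool).

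Compared with livers that had not been injected, vehicle changed no sterol arm gene by test, beside 2.00% of all genes (2 at an unadjusted p under 0.05, 0 with DESeq2 and limma-voom). WT PRA against normal is a comparison that shares its PRA libraries with that against vehicle. It gave 3 lower and 0 higher members, where 14.9% and 13.5% of all genes were called. The 3 were Sc5d, Insig1 and Stard4, and DESeq2 and limma-voom called 4 members each. In 6 members all PRA libraries were below all normal ones and in 0 above, beside 16.9% and 16.7% of all genes. Stard4, a carrier of cholesterol between membranes named here after its values were seen, was at 84.0, 53.4, 51.4 and 72.5 CPM in normal and at 31.5, 36.9, 32.4 and 40.8 CPM in WT PRA libraries. No PRA library reached the lowest normal one (log2 fold change -0.88 ± 0.19, edgeR adjusted p = 0.00164). WT vehicle libraries were in between, at 36.2, 38.3, 55.1 and 65.9 CPM, and overlapped the PRA libraries (-0.46, edgeR adjusted p = 0.0832). The knockout estimate of Stard4 was the same size (-0.46, edgeR adjusted p = 0.138), from 50.2, 38.0, 53.3 and 40.0 CPM after vehicle to 30.3, 33.2 and 35.6 CPM after PRA. For Insig1 the fall from normal (-0.47, edgeR adjusted p = 0.0482) was lost without any of 7 of the 8 libraries, with adjusted p up to 0.145 without WT PRA replicate 3.

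**Figure D2:**
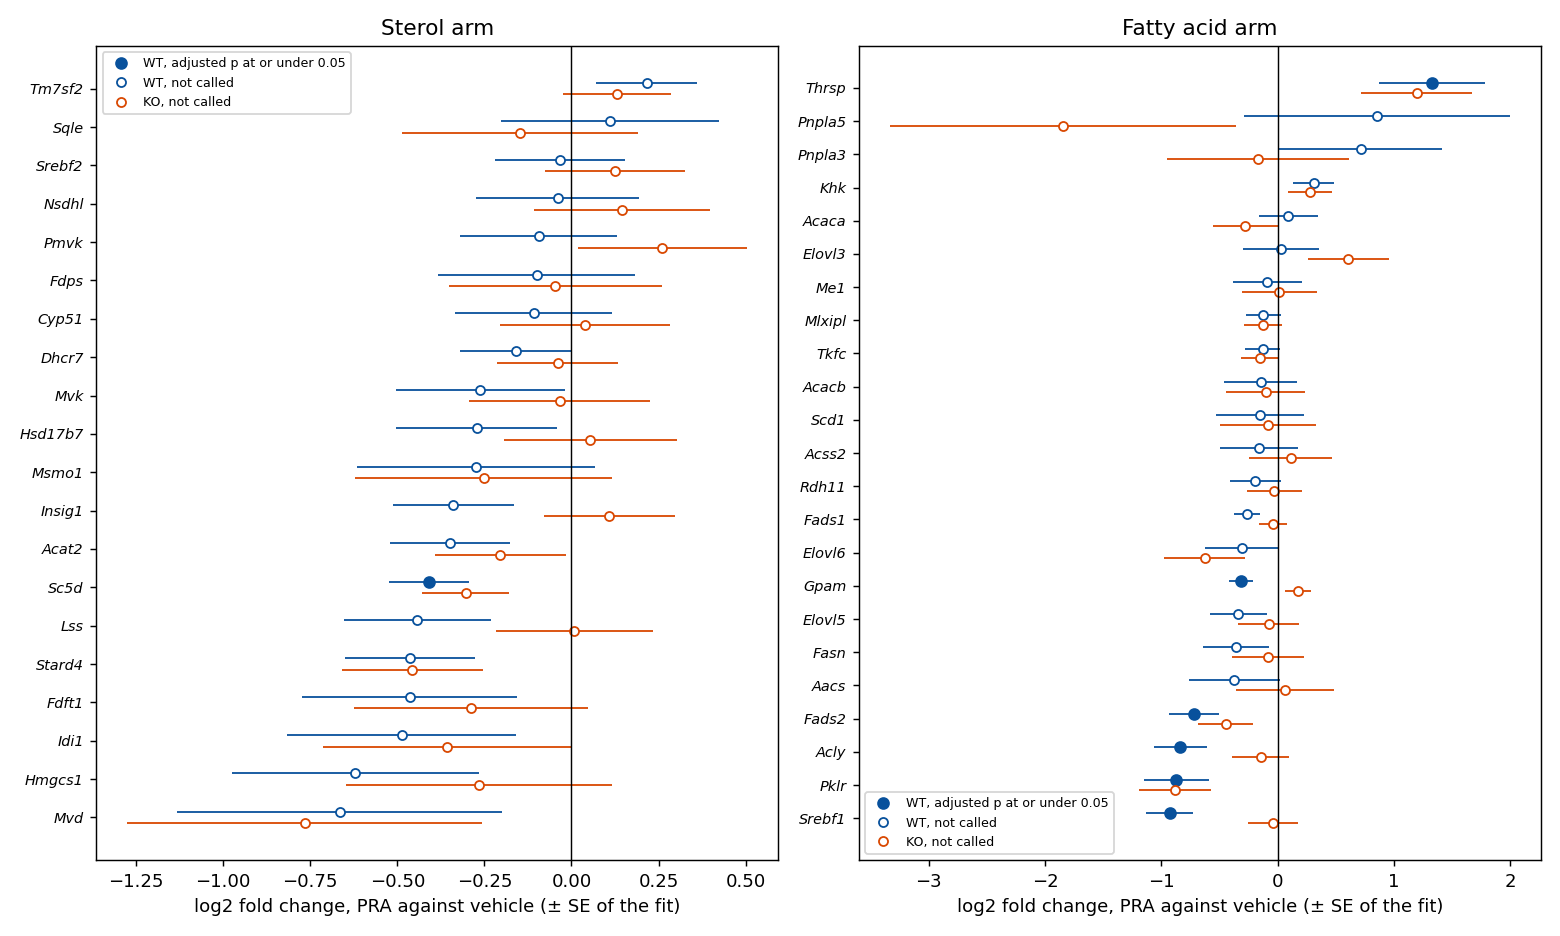
Log2 fold change of each member between PRA and vehicle libraries in WT (blue) and knockout (orange) livers, with the standard error of the edgeR fit as bars and the sterol arm on the left. Filled points passed an adjusted p of 0.05: Sc5d in the sterol arm and Thrsp, Gpam, Fads2, Acly, Pklr and Srebf1 in the fatty acid arm, all in WT livers. The x axes of the panels differ in range.

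In the fatty acid arm, WT livers under PRA had less transcript of the SREBP-1 gene and of 4 enzymes, and more of Thrsp. Of 23 members 1 rose and 5 fell, Srebf1, Acly, Fads2, Pklr and Gpam, and 17 did not pass. The median was -0.16 against -0.03 over all genes, with 6 estimates above and 17 below 0. The shares called were 4.35% higher and 21.7% lower, beside 9.74% and 12.3% of all tested genes. The same 6 members were those whose PRA and vehicle libraries did not overlap, 1 higher and 5 lower, beside 11.1% and 12.1% of all genes. That count uses the same libraries as the calls and adds no separate evidence for them. In bulk liver fewer cells of a type and less RNA per cell cannot be told apart.

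Of the regulators, Srebf1 fell and Mlxipl did not pass. Srebf1 (ENSMUSG00000020538, chromosome 11) was at 176, 179, 183 and 220 CPM in the WT vehicle libraries and at 103, 99.6, 102 and 94.8 CPM in the WT PRA libraries. The PRA libraries lay close together and far below all vehicle libraries, a 1.90-fold lower level (log2 fold change -0.93 ± 0.20, SE, n = 4 each, edgeR adjusted p = 0.00251) that passed without any of the 8 libraries. Knockout libraries were at 94.5, 161, 218 and 157 CPM after vehicle and at 103, 186 and 172 CPM after PRA. They overlapped, and both groups held a library at the WT PRA level, and the difference was -0.04 (interval -0.49 to 0.41, edgeR adjusted p = 0.934). The 2 responses differed by 0.89 (interval 0.28 to 1.5), which did not pass over all genes (edgeR adjusted p = 0.280). Under PRA every knockout library was above every WT library in Srebf1, though knockout replicate 1, at 103.4 CPM, was level with WT replicate 1, at 102.7 CPM. That difference was 0.62 (edgeR adjusted p = 0.123) and passed without knockout PRA replicate 1. Mlxipl was at 319, 215, 251 and 270 CPM after vehicle and at 238, 205, 267 and 260 CPM after PRA in WT livers. Its knockout libraries held 206, 289, 267 and 225 CPM after vehicle and 173, 221 and 283 CPM after PRA. All groups overlapped, with log2 fold changes of -0.12 and -0.13 (edgeR adjusted p = 0.593 and 0.641).

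Pklr, Khk and Tkfc carry sugar carbon toward lipid. Pklr (ENSMUSG00000041237, chromosome 3), the liver pyruvate kinase and a known ChREBP target, was at 374, 353, 476 and 352 CPM in WT vehicle and at 173, 140, 275 and 261 CPM in WT PRA libraries. The groups did not overlap (1.83-fold lower, log2 fold change -0.87 ± 0.28, edgeR adjusted p = 0.0346). In knockout livers Pklr was at 294, 226, 450 and 411 CPM after vehicle and at 113, 243 and 207 CPM after PRA. That estimate was as large, -0.88 ± 0.31, and missed the threshold (edgeR adjusted p = 0.0615), while DESeq2 (adjusted p = 0.0322) and limma-voom (0.0343) called it. The interaction of Pklr was -0.01 (interval -0.88 to 0.86, edgeR adjusted p = 0.997). Its WT call was lost without WT vehicle replicate 1, 2 or 3 or WT PRA replicate 1 or 2 (adjusted p = 0.0504 to 0.0993). Khk, at 424 ± 81 and 525 ± 81 CPM, and the triose kinase Tkfc, at 533 ± 71 and 488 ± 80 CPM, did not pass.

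The enzymes that supply and build the acyl chain gave 1 call. Acly (ENSMUSG00000020917, chromosome 11), which cleaves citrate into cytosolic acetyl-CoA, was at 326, 188, 233 and 217 CPM after vehicle and at 146, 107, 149 and 136 CPM after PRA in WT livers. All PRA libraries were below all vehicle libraries (1.79-fold lower, log2 fold change -0.84 ± 0.23, edgeR adjusted p = 0.0129), but leaving out WT vehicle replicate 1 ended the call (adjusted p = 0.0537). Knockout libraries overlapped, at 108, 142, 206 and 166 CPM after vehicle and 84.4, 191 and 146 CPM after PRA (-0.15, edgeR adjusted p = 0.735, interaction 0.69, interval -0.01 to 1.39, adjusted p = 0.565). Fasn averaged 422 ± 100 and 329 ± 88 CPM in WT vehicle and PRA libraries. Acaca and Acacb, the acetyl-CoA carboxylases, averaged 75.0 ± 18 and 79.9 ± 22 CPM and 117 ± 35 and 105 ± 27 CPM. None of these 3 differed beyond the spread, nor did Acss2, the acetyl-CoA synthetase, or malic enzyme Me1.

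Among elongases and desaturases Fads2 passed. Fads2 (ENSMUSG00000024665, chromosome 19), which starts the synthesis of long polyunsaturated fatty acids, was at 610, 583, 572 and 1139 CPM in WT vehicle and at 385, 367, 537 and 475 CPM in WT PRA libraries. The groups did not overlap, and vehicle replicate 4 stood far above the others (1.65-fold lower, log2 fold change -0.72 ± 0.22, edgeR adjusted p = 0.0225). Without that library the difference was -0.42 (edgeR adjusted p = 0.0971), and it also missed the threshold without WT PRA replicate 1 (0.0654) or 2 (0.0693). Knockout libraries held 859, 439, 657 and 633 CPM after vehicle and 577, 435 and 411 CPM after PRA (-0.45, edgeR adjusted p = 0.211). Against the normal libraries, at 930, 946, 1010 and 1054 CPM, all WT PRA libraries were lower (-1.16 ± 0.22, edgeR adjusted p = 0.000571), and all WT vehicle libraries except replicate 4 were lower too, without passing in the fit to all libraries (-0.44, edgeR adjusted p = 0.340). Scd1 varied more than it differed, from 2010 to 8220 CPM in WT PRA libraries alone, with means of 5530 ± 2014 CPM after vehicle and 4981 ± 2687 CPM after PRA. Elovl6, Elovl5 and Elovl3, which lengthen the chain, did not pass, nor did the delta-5 desaturase Fads1 (-0.26, edgeR adjusted p = 0.0931), the retinal reductase Rdh11 (67.4 ± 8.7 and 59.1 ± 11 CPM) or Aacs, which activates acetoacetate for lipid synthesis (62.4 ± 17 and 48.2 ± 8.1 CPM). Elovl3 averaged 208 ± 58 CPM in normal livers and 619 ± 110 CPM in knockout PRA livers, the lowest and highest of its group means.

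Gpam and Thrsp complete the calls. Gpam (ENSMUSG00000024978, chromosome 19), the mitochondrial acyltransferase that starts triglyceride assembly, was at 98.0, 87.8, 86.7 and 104 CPM after vehicle and at 79.9, 81.6, 63.6 and 78.2 CPM after PRA in WT livers. The groups did not overlap, though the fall was small (1.24-fold, log2 fold change -0.31 ± 0.10, edgeR adjusted p = 0.0335), and 4 libraries each ended the call when left out, WT vehicle replicates 1 and 4 and WT PRA replicates 3 and 4 (adjusted p = 0.0540 to 0.128). In knockout livers it was at 99.7, 89.2, 109 and 93.6 CPM after vehicle and at 99.9, 111 and 119 CPM after PRA (0.17, edgeR adjusted p = 0.314). All 3 knockout PRA libraries were above all 4 WT PRA libraries, and Gpam was the member called between the genotypes under PRA (1.45-fold higher in the knockout, log2 fold change 0.54 ± 0.11, edgeR adjusted p = 0.00612), a call kept without any of the 7 libraries. The difference between the 2 responses was 0.49 (interval 0.17 to 0.80) and did not pass over all genes (edgeR adjusted p = 0.237).

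Thrsp (ENSMUSG00000035686, chromosome 7), a carbohydrate- and thyroid hormone-responsive gene named here after its values were seen, moved against the other called members of the arm. It was at 285, 403, 602 and 597 CPM in WT vehicle and at 1351, 943, 1293 and 1149 CPM in WT PRA libraries. All WT PRA libraries were also above the normal ones, at 581, 516, 415 and 907 CPM. The rise over vehicle was 2.51-fold (log2 fold change 1.33 ± 0.45, edgeR adjusted p = 0.0479), just inside the threshold, and leaving out any of the 8 libraries put it outside (1.16 to 1.47, adjusted p = 0.0574 to 0.113). In knockout livers Thrsp was at 140, 103, 439 and 219 CPM after vehicle and at 228, 861 and 457 CPM after PRA, an estimate of 1.20 that did not pass (edgeR adjusted p = 0.107) except without vehicle replicate 3 or PRA replicate 1. Knockout PRA libraries were all below WT PRA libraries (-1.20, edgeR adjusted p = 0.230).

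**Figure D3:**
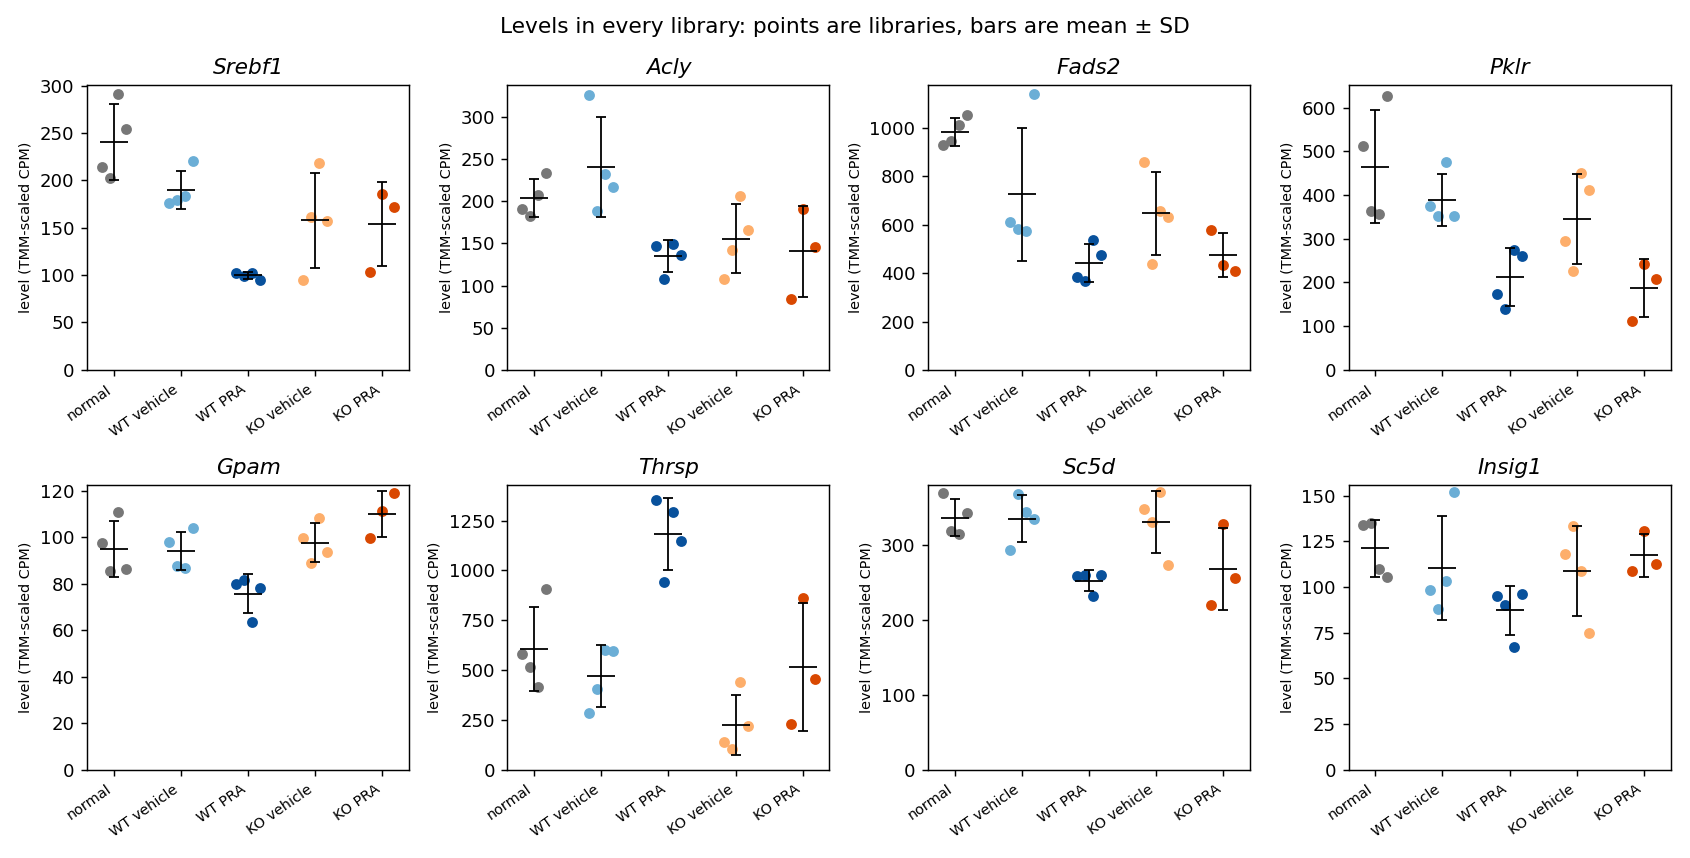
Level of the 7 members called in WT livers and of Insig1 in each of the 19 libraries, as TMM-scaled CPM on a linear axis from 0. Points are libraries and bars are mean ± SD of a group. In WT PRA libraries Srebf1 sits between 94.8 and 103 CPM, below all WT vehicle libraries, and Thrsp between 943 and 1351 CPM, above them.

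In knockout livers no fatty acid arm gene passed between PRA and vehicle, where 16.3% of all genes were called in either direction. The count was 2 at an unadjusted p under 0.05 (Pklr and Thrsp), and DESeq2 and limma-voom called 1, Pklr. The median was -0.08, with 16 of 23 estimates below 0 and 16 of 23 of the same sign as in WT livers. No member passed the interaction, where 0.475% of all genes were called (2 at an unadjusted p under 0.05, 0 with DESeq2 and limma-voom). The WT calls are therefore not shown to be absent from knockout livers. Under PRA 1 member was higher in the knockout, Gpam, where 1.64% of all genes were called higher. Knockout and WT PRA libraries did not overlap in 3 members higher and 2 lower in the knockout, beside 8.48% and 7.26% of all genes. After vehicle, where 0.0706% of all genes were called, none passed (2 at an unadjusted p under 0.05, 0 with DESeq2 and limma-voom). Even so, 19 of 23 estimates were lower in the knockout, with a median of -0.19 against -0.01 over all genes. Their libraries were widely spread, as given below.

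Against normal livers, vehicle changed no fatty acid arm gene by test, beside 2.00% of all genes (1 at an unadjusted p under 0.05, 0 with DESeq2 and limma-voom). Without WT vehicle replicate 4 it was Fads2 that passed. WT PRA against normal gave 5 lower members, Srebf1, Fads2, Pklr, Gpam and Fads1, and none higher, beside 14.9% and 13.5% of all genes. In 8 members all PRA libraries were below all normal ones and in 2, among them Thrsp, above them, beside 16.9% and 16.7% of all genes. The calls of Fads1 (-0.31, edgeR adjusted p = 0.0421) and Gpam (-0.33, edgeR adjusted p = 0.0211) were the weakest. That of Fads1 was lost with RLE scaling (0.0566), with no filter on low counts (0.0504) and without any of 6 of the 8 libraries, normal replicates 1, 3 and 4 and WT PRA replicates 1, 2 and 4 (up to 0.139). For Gpam leaving out normal replicate 1 or 3 or WT PRA replicate 3 ended the call (up to 0.101). Srebf1 was furthest down, from 214, 203, 291 and 254 CPM in normal libraries (-1.27 ± 0.20, edgeR adjusted p = 0.000116). Pklr fell from 511, 363, 357 and 626 CPM (-1.13 ± 0.28, edgeR adjusted p = 0.00643). Acly, called against vehicle, was at 191, 183, 207 and 234 CPM in normal libraries and did not pass against them (-0.60, edgeR adjusted p = 0.0576). These comparisons share the WT PRA libraries with those against vehicle and are not independent of them.

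Single libraries moved many members of an arm together. In the sterol arm normal replicate 1 was the highest of its group in 18 of 20 genes, WT vehicle replicate 4 in 16, and knockout vehicle replicate 4 the lowest in 19. In the fatty acid arm WT PRA replicate 2 was the lowest of its group in 20 of 23 genes, knockout PRA replicate 1 also in 20, and knockout vehicle replicate 3 the highest in 20. A pair of libraries was extreme in both arms: knockout PRA replicate 2 was the highest of its group in 15 of 20 sterol and 15 of 23 fatty acid genes, and normal replicate 3 the lowest in 16 and 14. The mean log2 CPM over the sterol arm ran from 5.71 to 6.51 in WT vehicle and from 5.40 to 6.34 in knockout vehicle libraries, but from 5.81 to 5.87 in WT PRA libraries. The fatty acid arm ran from 6.63 to 7.51 in the same WT PRA libraries. By gene, the median coefficient of variation between sterol arm libraries was 11.1% in WT PRA and 27.2% in WT vehicle, and between fatty acid arm libraries 18.5% and 24.6%. The difference in spread was not tested. How often each library was the highest or lowest over all tested genes is not given. The counts above therefore do not show a pattern particular to these arms.

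**Figure D4:**
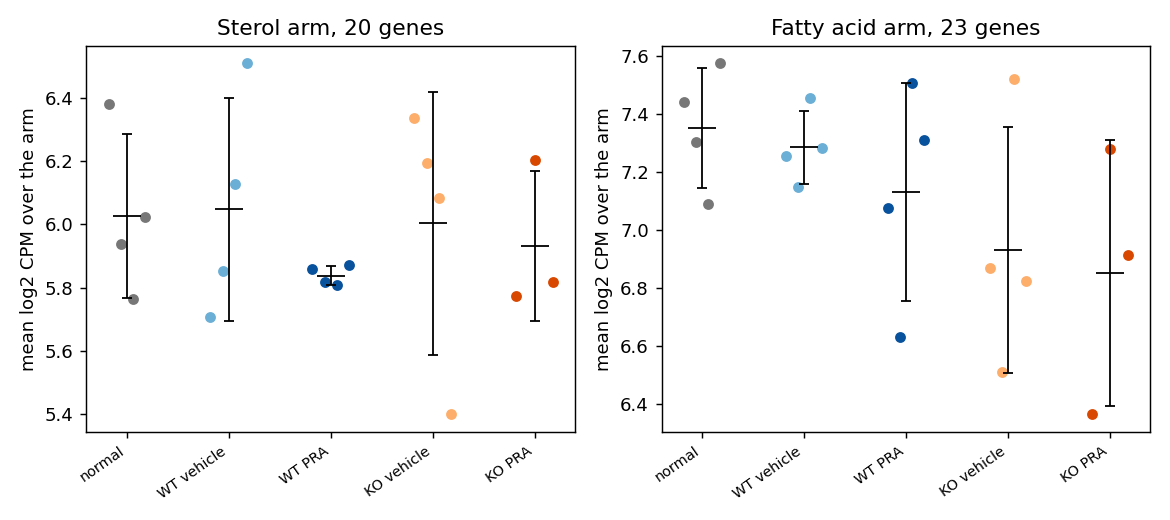
Mean log2 CPM over the 20 sterol arm genes (left) and the 23 fatty acid arm genes (right) in each library, with bars for mean ± SD of a group. The axes do not start at 0 and differ between the panels. WT PRA libraries lie within 5.81 to 5.87 in the sterol arm and spread over 6.63 to 7.51 in the fatty acid arm.

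**Figure D5:**
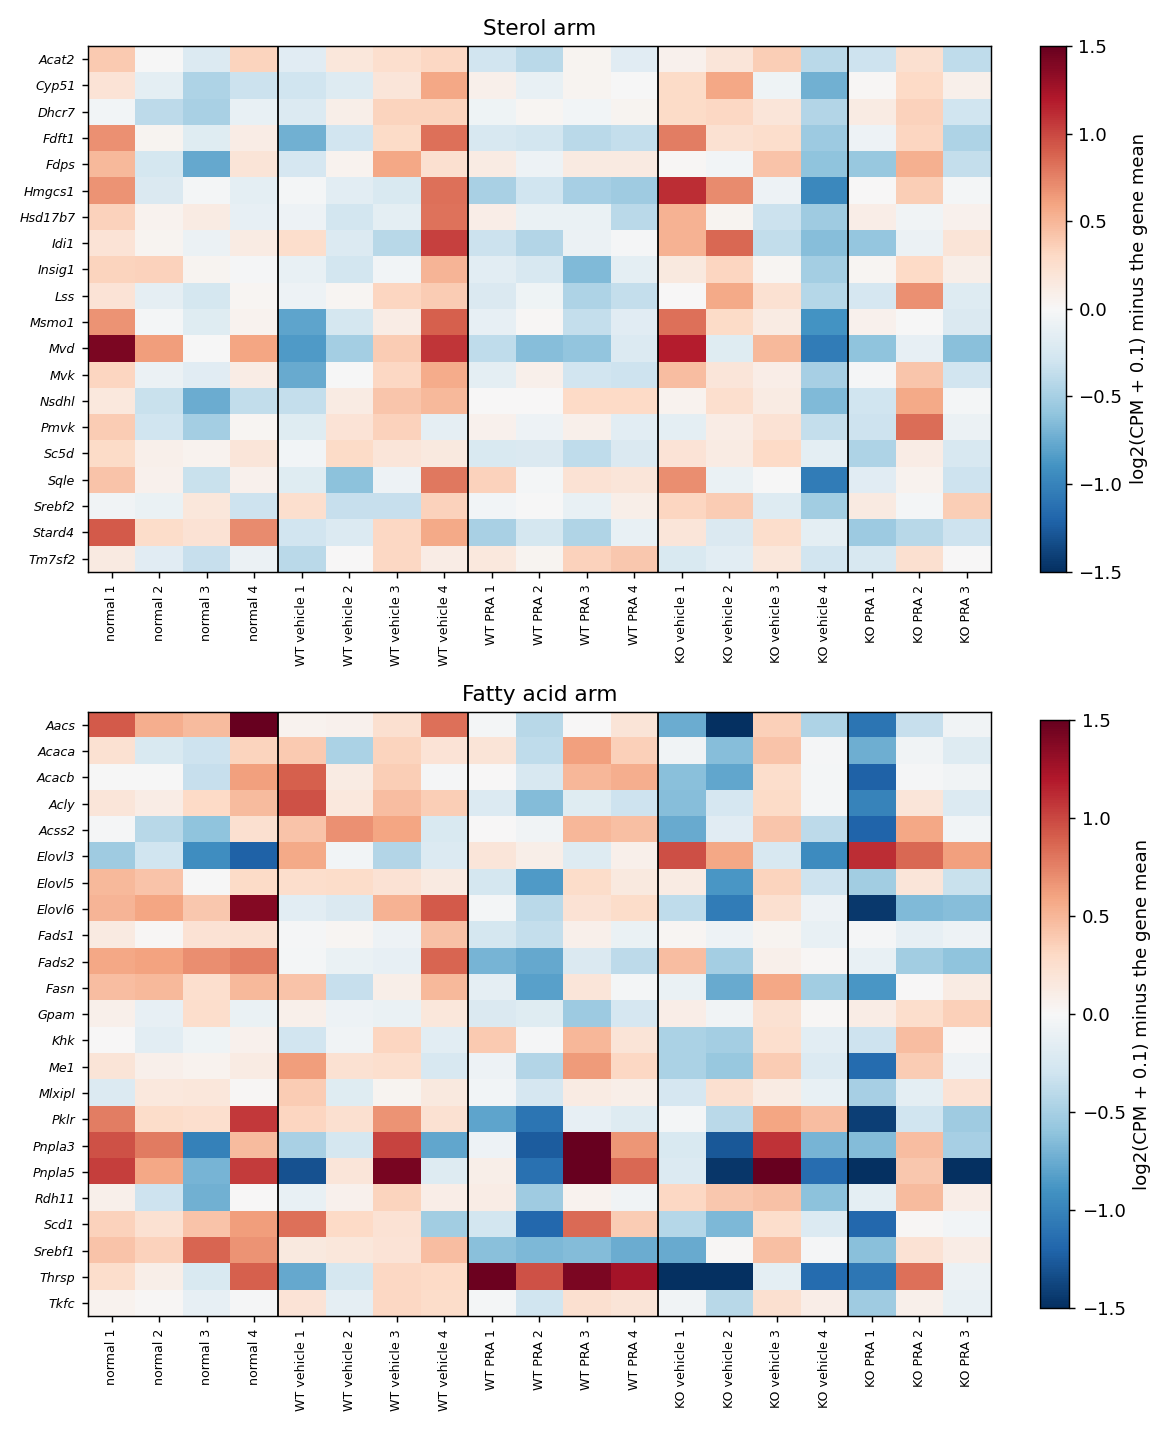
Level of every member in every library as log2(CPM + 0.1) minus the mean of that gene over the 19 libraries, with colours capped at 1.5 in either direction. Columns are libraries, with lines between groups. Columns of one colour over most genes of an arm are libraries such as knockout vehicle replicate 4 in the sterol arm, the lowest of its group in 19 of 20 genes.

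Over the 5 groups the arms were ordered differently. The lowest group mean was in WT PRA for 11 of 20 sterol arm genes and in knockout PRA for 11 of 23 fatty acid arm genes. The highest was in WT vehicle for 8 of 20 and in normal livers for 9 of 23. Averaged over the fatty acid arm, log2 levels were 7.35 ± 0.21 in normal, 7.28 ± 0.13 in WT vehicle, 7.13 ± 0.38 in WT PRA, 6.93 ± 0.42 in knockout vehicle and 6.85 ± 0.46 in knockout PRA livers, steps that each lie within 1 SD of the next group. The sterol arm averaged 6.03 ± 0.26, 6.05 ± 0.35, 5.84 ± 0.03, 6.00 ± 0.42 and 5.93 ± 0.24 in the same order.

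The neighbouring steps of these pathways were read from lists of other genes. Of 23 tested genes of sterol transport and SREBP control, 3 rose and 5 fell in WT livers under PRA, and 1 rose and 3 fell in knockout livers. These are 13% and 21.7% of the list in WT livers, beside 9.74% and 12.3% of all genes, and 4.35% and 13% in knockout livers, beside 7.96% and 8.38%. Abca1, the exporter of cholesterol to apolipoprotein A-I, was at 54.9, 49.5, 41.6 and 50.5 CPM after vehicle and at 90.2, 106, 106 and 89.0 CPM after PRA in WT livers (1.99-fold higher, log2 fold change 0.99 ± 0.10, edgeR adjusted p = 5.61e-07). Knockout livers went from 51.5, 48.1, 47.7 and 40.6 CPM to 48.3, 53.1 and 62.7 CPM (0.22, edgeR adjusted p = 0.178). For Abca1 the responses themselves differed (interaction -0.77 ± 0.15, edgeR adjusted p = 0.0174), a call lost without knockout PRA replicate 1 (0.0589) or 2 (0.0590). Npc1, which releases cholesterol from lysosomes, averaged 124 ± 11 CPM after vehicle and 74.5 ± 9.1 CPM after PRA in WT livers (-0.73, edgeR adjusted p = 0.000173). In knockout livers it fell less by estimate, from 122 ± 18 to 91.5 ± 18 CPM (-0.41, edgeR adjusted p = 0.0354), a call lost without knockout vehicle replicate 2 or 4 or knockout PRA replicate 1 or 2. Insig2, the second SREBP anchor, rose from 232 ± 100 to 419 ± 63 CPM in WT livers (0.85, edgeR adjusted p = 0.0230) and from 205 ± 40 to 554 ± 119 CPM in knockout livers (1.44, edgeR adjusted p = 0.00156). The WT call of Insig2 was lost without vehicle replicate 3 or 4 or PRA replicate 1. The sterol exporter Abcg1, at 4.36 to 7.08 CPM on average, fell in WT livers (-0.56, edgeR adjusted p = 0.00380) and in knockout livers (-0.47, edgeR adjusted p = 0.0235), the latter not without knockout vehicle replicate 4 or knockout PRA replicate 2 or 3.

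Around fatty acid synthesis, 3 of 30 genes rose and 3 fell in WT livers, and 5 rose and none fell in knockout livers under PRA. The WT shares, 10% in each direction, were near the 9.74% and 12.3% of all genes, and 16.7% rose in knockout livers beside 7.96% of all genes. Lpin1, a phosphatidate phosphatase and coregulator, rose 4.67-fold in knockout livers, from 115 ± 16 to 539 ± 140 CPM (edgeR adjusted p = 6.11e-05). In WT livers it averaged 310 ± 111 CPM after vehicle and 539 ± 53 CPM under PRA (1.74-fold, edgeR adjusted p = 0.0417), a call lost without any of 7 of the 8 libraries, up to 0.114 without WT vehicle replicate 4, and kept without WT vehicle replicate 1. Between the genotypes Lpin1 differed by -1.43 after vehicle, with no overlap of libraries, and did not pass (edgeR adjusted p = 0.0716). The interaction of Lpin1 did not pass (1.43, interval 0.60 to 2.25, edgeR adjusted p = 0.168). Slc2a2, the hepatic glucose transporter, fell in WT livers (1.44-fold, edgeR adjusted p = 0.00167), with -0.29 in knockout livers (edgeR adjusted p = 0.106). Dgat1, of triglyceride synthesis, rose in knockout livers (1.33-fold, edgeR adjusted p = 0.00465), with 0.24 in WT livers (edgeR adjusted p = 0.0559).

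Cell type markers moved in the same comparisons. Between WT PRA and WT vehicle, 2 of 8 hepatocyte markers rose and none fell, 4 of 4 tested neutrophil markers rose, 4 of 5 sinusoidal endothelial markers fell and 1 rose, and 3 of 5 stellate cell markers fell. Of the other lists, 2 of 3 B cell markers fell, and 2 of 3 red cell markers and 1 of 4 cholangiocyte markers rose. No mesothelial, Kupffer or T cell marker passed, nor did the 2 of 6 adipocyte and 1 of 4 pancreas markers that were tested. Over all tested genes 9.74% were called higher and 12.3% lower. In knockout livers 4 of 8 hepatocyte and 2 of 4 tested neutrophil markers rose, and 2 of 5 sinusoidal markers fell and 1 rose. There 2 of 5 stellate and 3 of 3 B cell markers fell, with none called in the other lists. Over all tested genes the knockout shares were 7.96% higher and 8.38% lower. The part of these cell types in the changes of the members was not tested. The strand setting of the counting is not given, and 16 of the 43 members share exon bases with another gene in GENCODE M21. Of the called members, Pklr overlaps Hcn3, at 0.159 to 0.583 CPM on average, and Srebf1 overlaps Rai1, at 12.3 to 15.4 CPM, both on the opposite strand. Tested against a 1.5-fold change instead of no change, none of the 7 calls in WT livers passed.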

How the data were processed

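Poly(A) RNA of 19 mouse liver libraries was analysed. The authors deposited raw read counts per gene, as a series table and as 1 file per library with the same values. HISAT2 2.2.1, SAMtools 1.13, HTSeq 0.11.3 and GRCm39 are named in the submitters' processing notes. The annotation release was, like the strand setting, not given in the sources used here. Lines of reads outside genes were left out; 66.95% to 71.71% of a library was in genes.

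Groups and replicate numbers came from the sample titles. The tool was edgeR 4.0.16 (R 4.3.3): filterByExpr on group to drop low genes, TMM scaling, and a robust quasi-likelihood fit over all 19 libraries with 1 mean for each group. There were 7 contrasts, each with Benjamini-Hochberg adjustment over all genes and a threshold of 0.05. Intervals are 95%. Alternatives were upper quartile and RLE scaling, no filter, a filter of 1 CPM in 3 libraries, a 1.5-fold threshold (glmTreat), the replicate number as a block, a fit to the groups compared, DESeq2 1.42.0, limma-voom (limma 3.58.1) with sample weights, and each library left out. The procedure was run on simulated counts as a check of the code, and its power for changes of the size found in these arms is not given.

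The members, pathway lists and marker lists were chosen with earlier results of these data known. Values per library are given for the regulators Srebf1, Srebf2, Insig1 and Mlxipl and for up to 5 called members per arm and contrast by smallest p, and values for up to 4 called genes of each other pathway list. A gene that this rule names is withheld and is not reported here. Arm means are of log2 CPM with a prior count of 2. Promoter windows are from RefSeq (GRCm38.p6); exon lengths and overlaps are from GENCODE M21. No pair of replicates agreed within sampling noise (lowest chi-square per degree of freedom 20.9). Limits for a count of 0 take 3 counts of the library and cover counting error only.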

Additional observations from a re-analysis of the deposited data

Results flagged for a closer look

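In 76 groups of 4 libraries, 3 values stood apart from the rest of their group by Dixon's criterion, which chance meets in about 1 of 20 groups. Fads2 was at 1139 CPM in WT vehicle replicate 4, with 610 CPM in the next library. Srebf1 was at 220 CPM in WT vehicle replicate 4, with 183 CPM next, and Sc5d at 232 CPM in WT PRA replicate 3, with 259 CPM next. The response of Abca1 to PRA differed between knockout and WT livers by -0.77 on the log2 scale, by a test of the interaction.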

How the results depend on the processing

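None of 38 called estimates of single genes changed sign under any alternative, and 11 of 31 estimates that were not called did, among them Srebf2 in WT livers and Srebf1, Acly, Insig1 and Mlxipl in knockout livers. In WT PRA against vehicle the sterol arm had 1 call, 1 to 2 when a library was left out (2 without WT vehicle replicate 1 or 2), 0 against a 1.5-fold change and 2 in a fit to the compared groups. The fatty acid arm had 6 calls, 2 to 5 when a library was left out (2 without WT vehicle replicate 1, 3 without WT vehicle replicate 4 or WT PRA replicate 1 or 2), 3 without the filter on low counts, which adds genes to the adjustment, and 0 against a 1.5-fold change. In knockout PRA against vehicle the counts of 0 became 1 in a fit to the compared groups (sterol arm) and 1 with upper quartile scaling, the 1 CPM filter, DESeq2 or limma-voom (fatty acid arm), and were 0 to 1 in each arm when a library was left out. Under PRA the genotypes differed in 0 sterol genes, 1 in a fit to the compared groups, and in 1 fatty acid gene, 0 against a 1.5-fold change, 2 in a fit to the compared groups and 1 to 2 when a library was left out. WT vehicle against normal gave 0 to 1 fatty acid calls when a library was left out. WT PRA against normal gave 3 sterol calls, 0 against a 1.5-fold change and 6 in a fit to the compared groups, and 5 fatty acid calls, 2 against a 1.5-fold change, 11 in a fit to the compared groups and 3 to 5 when a library was left out. A 1.5-fold threshold by construction calls fewer genes, and leaving out a library reduces the samples. For the other changes the cause was not tested.

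Replicate numbers gave no clear pairing of the samples. Deviations of 36 same-numbered pairs correlated at -0.25 to 0.19 (median 0.005), and those of 108 other-numbered pairs at -0.22 to 0.27 (median -0.008). Correlations were above 0.1 in 9 of the same-numbered and 16 of the other-numbered pairs. With so few libraries per group these values cannot exclude a shared day or batch. With the replicate block the fatty acid arm had 5 calls in WT PRA against vehicle and 8 in WT PRA against normal. The interaction and knockout against WT after vehicle gave 0 calls in both arms under all alternatives. Depth limits Pnpla3 and Pnpla5 most, at around 1 CPM or less.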
